A study of Mus musculus with 72 samples.

Results

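Potassium channel genes were described in the suprachiasmatic nucleus (SCN), the small paired nucleus of the hypothalamus that paces daily rhythms. They were taken as the genes whose symbol begins with Kcn in the SCN gene count table, with 1 such gene left out, which gave 73 members of the 15759 genes in the table. Of these, 71 code for proteins and 2, Kcnq1ot1 and Kcnmb4os2, are non-coding RNAs named after a neighbouring channel gene. All 73 passed the filter on low counts.

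The 36 SCN libraries came from C57BL/6 mice of 8 to 12 weeks that had been fed for 11 days, either with food lacking methionine and choline (the MCD diet) or with an isocaloric control food. Every mouse, on either diet, had 10 days of a 12 h light and 12 h dark cycle and was then kept in constant darkness for the day of sampling. Groups were set by diet and by circadian time (CT, hours from the start of the subjective day), at CT0, CT4, CT8, CT12, CT16 and CT20. Each of the 12 groups held 3 libraries, 2 from males and 1 from a female, so 6 libraries stood behind each time and 18 behind each diet. The protocol text speaks of males alone, while the labels of 12 libraries name females. Those labels were followed. Each SCN was cut by laser from 23 brain sections of 25 µm, and the labels do not say that a mouse gave only 1 library, so p-values measure the spread between these libraries.

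Potassium channels pass the outward current that holds a neuron near rest and ends its spikes, and so set how fast and how regularly a neuron fires. SCN neurons fire more by day than by night, and daily changes in several potassium currents are known to take part in this. Voltage-gated (Kv) channels repolarise the action potential, calcium-activated channels of the BK and SK types shape the pause after it, K2P channels carry the resting leak, and auxiliary subunits tune the gating and surface level of the pore-forming ones.

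Library totals ran from 23.3 M to 79.8 M counts (median 57 M), and the members took 0.145% to 0.209% of the counts of a library. All 10 listed SCN markers that were tested had a 24 h rhythm, among them Vip and Avp, the peptides of its core and shell neurons, as did all 10 clock genes tested. The Per2 transcript, a core clock repressor, had a range of 3.35 (log2, peak to trough of the fitted 24 h curve) with a peak at CT8.9. These are bulk tissue samples, in which fewer cells of a type and less RNA per cell cannot be told apart.

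Compared per kilobase of exon, the highest members came from several families. The mean level was 19.9 CPM per kb for Kcnk1, a weak leak channel of the K2P family, 18.9 for Kcnj9, a subunit of G-protein-gated inward rectifiers, and 18.6 for Kcnip3, a calcium-binding auxiliary subunit of the Kv4 channels. CPM, the usual counts-per-M unit, is the share of a gene in the counts of its library after TMM scaling. Among those that followed were Kcne1l with 13.7, the fast Kv3 subunit Kcnc2 with 12.1, the inward rectifier subunit Kcnj16 with 11.4 and the A-type Kv4 subunit Kcnd2 with 10.6 CPM per kb. The lowest mean was that of the long non-coding Kcnq1ot1, at 0.186. Kcnk1 ranged from 34.8 to 52.2 CPM over the 36 libraries and Kcnj9 from 60.5 to 104, so their ranges per kb overlapped and their order is not separated by the spread. The highest members of other families were Kcna2 among Kv1 (7.05 CPM per kb), Kcnh2 among the EAG, ERG and ELK channels (8.78), Kcnf1 among the silent Kv subunits (2.32), Kcnma1 among the large-conductance and sodium-activated channels (6.04) and Kcnn2 among the SK channels (2.60).

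**Figure D1:**
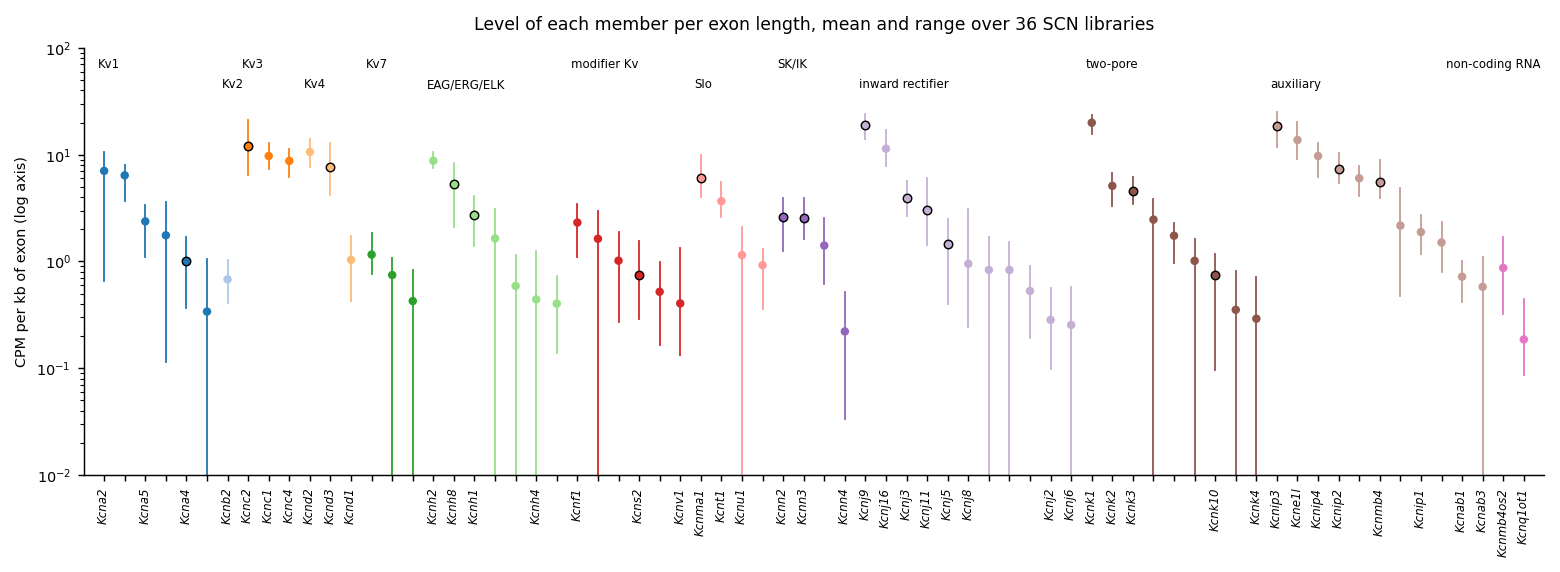
Mean level of each of 70 members in CPM per kb of exon on a log axis, grouped by family, with lines from the lowest to the highest of the 36 libraries. Members named in the text are labelled, black rings mark the 18 shown that were called for a 24 h rhythm, and lines that reach the bottom of the axis belong to members listed at 0 in 1 or more libraries; the means span from 0.186 to 19.9.

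The first question was whether potassium channel transcripts change over the circadian day. A 24 h wave was fitted to the 6 time means of both diets together and tested with edgeR's quasi-likelihood F test and Benjamini-Hochberg adjustment over all 15759 genes. Of the 73 members, 20 passed an adjusted p of 0.05 (27.4%), against 34.4% of all genes. Which share was higher turned with the method. That of the members was higher by DESeq2 (39.7% against 37.9%) and without the females (30.1% against 27.4%). It was also higher in the exon-bin files summed per gene (32.9% against 22.5%). There the background was a larger set of 21696 genes, so that share is not like for like. In the other alternatives, fits without a single library aside, the members' share was the lower. Of the 47 members with a mean of at least 5 CPM, 18 were called, and of the 26 below that level 2 were called. The shares of all genes at these levels were not worked out, so the counts describe the members alone. Over all members the median range was 0.44 on the log2 scale, against 0.27 over all genes. Over the called ones it was 0.56 against 0.39. A range cannot be negative and grows with noise in low genes, and these medians were not matched for level. Their peaks lay mostly in the subjective night: 16 of the 20 called members peaked between CT12 and CT24 (80.0%), against 49.2% of all called genes. Of all 73 members, 16 were called with such a peak, against 16.9% of all genes tested. The 6 h from CT14 to CT20 held 13 of the 20, against 24.9% of all called genes. That window was not among the planned comparisons and lies around the members' own peaks, so its share is no independent result. These shares are given as a description, with no test over the members.

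**Figure D2:**
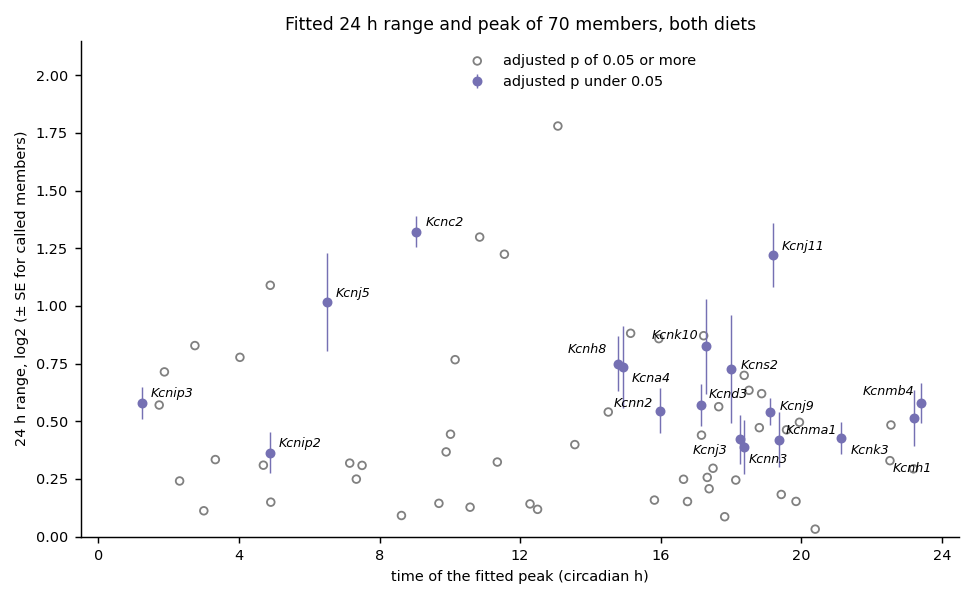
Fitted 24 h range (log2, vertical axis, with the standard error for called members) against the time of the fitted peak (circadian hours, horizontal axis) for 70 members, both diets together. The 18 called members shown are filled and named; 14 lie to the right of CT12, while Kcnc2, Kcnj5, Kcnip2 and Kcnip3 lie to the left.

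Among the Kv3 channels, whose fast closing allows high firing rates, Kcnc2 (ENSMUSG00000035681.8) had the largest range of the called members in the gene table. In the exon-bin sums it came after Kcnj11 (1.31 against 1.33). Kcnc2 peaked late in the subjective day. On the control diet its 3 libraries held 110, 119 and 121 CPM at CT8 and 55.9, 56.5 and 60.1 CPM at CT20. On MCD they held 126, 138 and 149 CPM at CT8 and 46.0, 54.9 and 61.1 CPM at CT20. Every library at CT8 and CT12 lay above every library at CT16, CT20 and CT0, and at CT8 the 3 MCD libraries lay above the 3 control libraries, while at CT20 the diets overlapped. The mean was 127 ± 14 CPM at CT8 and 55.7 ± 5.4 CPM at CT20 (SD, n = 6 each), and the fitted range was 1.32 ± 0.07 (SE, log2), a 2.5-fold change, with a peak at CT9.0 (edgeR adjusted p = 5.38e-15). Of the other Kv3 genes, Kcnc1 held 84.1 ± 12 CPM at CT4 and 99.0 ± 13 CPM at CT16, with overlapping libraries and an adjusted p of 0.060, and Kcnc4 had an adjusted p of 0.28.

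Promoters of Kcnc2 and of the night-peaking Kcnj9 are shown because these genes had the smallest rhythm p-values with a day and with a night peak. Each sequence is the 250 bases before a transcription start listed by RefSeq on build GRCm38.p6. For Kcnc2, on the plus strand at chr10:112269767-112270016, it is the most upstream of 4 listed starts, and for Kcnj9, on the minus strand at chr1:172329323-172329572, the single listed start. Neither holds a full match to the motifs named below, so no base is in capitals.
Kcnc2: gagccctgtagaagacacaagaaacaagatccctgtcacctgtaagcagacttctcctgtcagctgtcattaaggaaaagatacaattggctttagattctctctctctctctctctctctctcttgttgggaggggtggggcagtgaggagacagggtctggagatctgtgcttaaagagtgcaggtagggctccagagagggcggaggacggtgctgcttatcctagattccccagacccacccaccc
Kcnj9: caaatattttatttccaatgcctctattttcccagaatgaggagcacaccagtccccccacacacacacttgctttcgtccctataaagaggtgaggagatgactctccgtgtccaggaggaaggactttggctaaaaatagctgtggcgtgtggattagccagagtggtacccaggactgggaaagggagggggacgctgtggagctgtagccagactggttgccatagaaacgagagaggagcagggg
The motifs were searched on both strands from 250 bases before to 50 after each start, in the 53 members matched to the table, of which 14 were called. The E-box CACGTG was present for 4 of the 53 members (Kcnab1, Kcnh4, Kcnj2 and Kcnn4), none of them called, and for 8.09% of the 27025 genes in the table. The D-box TTATGTAA, the ROR element TAGGTCA and the cyclic AMP response element TGACGTCA were present for 0 of the 53, and for 1.11%, 2.97% and 2.03% of these genes (0.938%, 2.61% and 1.79% of all 32851 promoters, of which 7.15% held the E-box). The short form TGACG of the last was present for 13 of the 53, 1 of them called, and for 23.0% of these genes (20.8% of all promoters). Absence says only that these letters are not in this window.

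**Figure D3:**
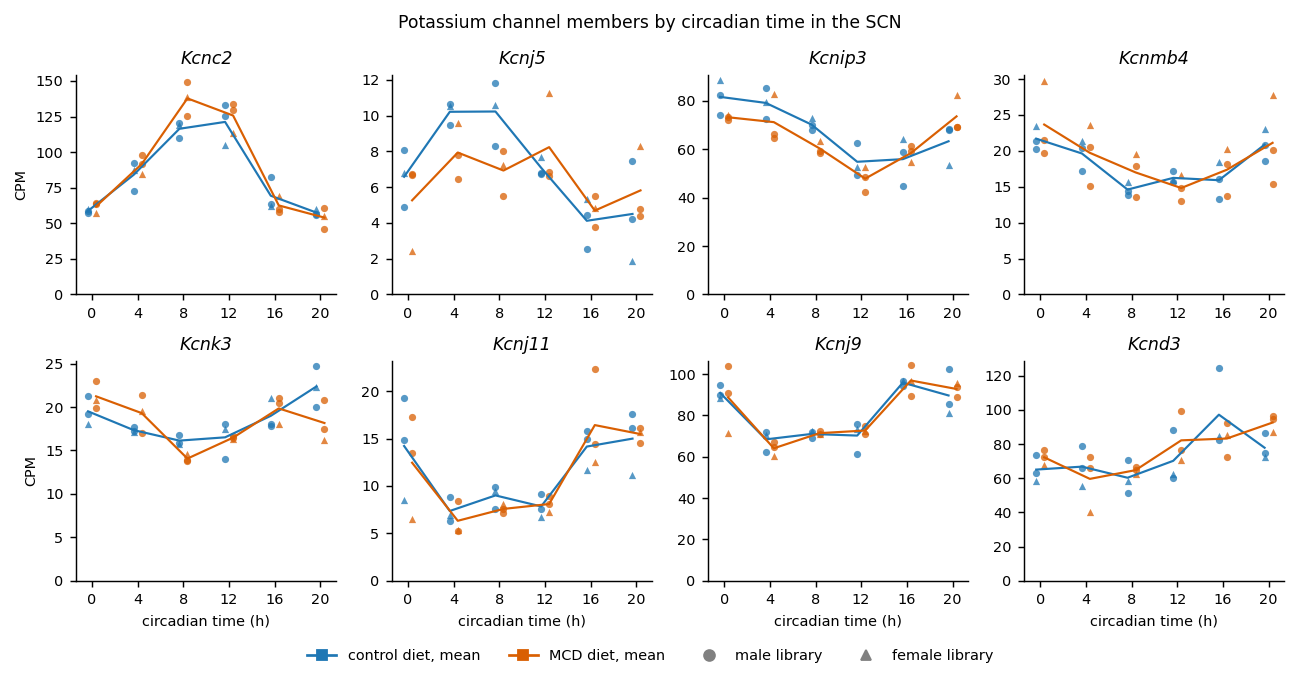
CPM in each of the 36 libraries against circadian time (h) for the 8 members whose libraries at the highest and lowest time did not overlap; lines join the means of 3 libraries per diet, circles are males and triangles females. Kcnc2 and Kcnj5 are high by day, Kcnip3, Kcnmb4 and Kcnk3 are high around CT0, and Kcnj11, Kcnj9 and Kcnd3 are high from CT16.

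For 8 of the 73 members the 6 libraries of the highest time all lay above the 6 of the lowest time, against 17.0% of all genes. Apart from Kcnc2, these were Kcnd3, Kcnip3, Kcnj11, Kcnj5, Kcnj9, Kcnk3 and Kcnmb4.

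The inward rectifiers held 4 of the called members. Kcnj11 (ENSMUSG00000096146.3) forms the pore of the ATP-sensitive potassium channel, which couples metabolism to excitability. At CT4 its control libraries held 6.33, 6.92 and 8.82 CPM and its MCD libraries 5.24, 5.32 and 8.41 CPM. At CT16 the control libraries held 11.7, 14.9 and 15.8 CPM and the MCD libraries 12.5, 14.4 and 22.3 CPM. All values at CT16 lay above all values at CT4, and the range was 1.22 ± 0.14 (SE, log2; 2.33-fold) with a peak at CT19.2 (edgeR adjusted p = 2.50e-07). Abcc8, which encodes its sulfonylurea receptor subunit and was on a list of channel partners, had a range of 1.81 ± 0.30 and a peak at CT20.2 (edgeR adjusted p = 0.00016). Abcc9, which encodes the other such receptor, had an adjusted p of 0.59. Of the 7 partners tested, Abcc8 and Amigo1, a Kv2 partner (range 0.32, peak CT19.2), were called.

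Of the G-protein-gated rectifiers, which open on inhibitory transmitter signals, Kcnj3, Kcnj5 and Kcnj9 were called. Kcnj9 (ENSMUSG00000038026.13) held 62.5, 70.6 and 72.2 CPM in the control libraries at CT4, where MCD gave 60.5, 64.6 and 67.2 CPM. At CT16 the control libraries held 94.2, 96.6 and 96.9 CPM, where MCD gave 89.7, 96.9 and 104 CPM, and the times did not overlap. Its range was 0.54 ± 0.06 with a peak at CT19.1 (edgeR adjusted p = 7.90e-08), and its partner subunit Kcnj3 had a range of 0.42 ± 0.11 with a peak at CT18.3 (adjusted p = 0.0082). Kcnj5 had its fitted peak by day. Its libraries held 6.44 to 10.7 CPM (median 9.51) at CT4 and 2.56 to 5.48 CPM (median 4.65) at CT16, a range of 1.02 ± 0.21 with a peak at CT6.5 (adjusted p = 0.0017). The remaining subunit of this group, Kcnj6, had a fitted range of 1.78 ± 0.73 and an adjusted p of 0.14, and was listed at 0 in 5 libraries. Kcnj8, a pore subunit found in vascular cells, was called on MCD alone (range 1.53, peak CT3.3, adjusted p = 0.036), where the call was kept in 26 of the 36 fits that left out a library (range 0.99 and adjusted p = 0.21 without MCD CT04 library 3). Without the females its range on MCD was 0.71 (adjusted p = 0.50). Over both diets Kcnj8 had an adjusted p of 0.081.

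Among the A-type Kv4 channels, which delay the next spike, Kcnd3 rose at night. It held 51.6 to 70.8 CPM (median 63.8) at CT8 and 72.5 to 124 CPM (median 85.0) at CT16, a range of 0.57 ± 0.09 with a peak at CT17.2 (edgeR adjusted p = 5.55e-05). Kcnd2, which was higher than Kcnd3 per kb but not in CPM, held 59.0 ± 7.0 CPM at CT4 and 51.0 ± 7.9 CPM at CT20, with an adjusted p of 0.53, and Kcnd1 had an adjusted p of 0.49. Of the 4 KChIP subunits, which bind Kv4 channels, Kcnip2 and Kcnip3 passed over both diets. Kcnip3 held 72.2 to 88.6 CPM (median 74.0) at CT0 and 42.3 to 62.5 CPM (median 51.0) at CT12, with no overlap, a range of 0.58 ± 0.07 and a peak at CT1.2 (adjusted p = 5.38e-07). Kcnip2 had a range of 0.36 ± 0.09 and a peak at CT4.9 (adjusted p = 0.0080). Kcnip4 passed on the control diet alone (range 0.52, peak CT7.4, adjusted p = 0.047), a call kept in 15 of the 36 fits that left out a library (adjusted p of up to 0.14), and Kcnip1 did not pass (adjusted p = 0.060).

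The BK channel Kcnma1, which opens on voltage and calcium together, was among the weaker calls. It held 73.5 to 119 CPM (median 82.0) at CT8 and 89.7 to 168 CPM (median 127) at CT20, with overlap, a range of 0.42 ± 0.12 and a peak at CT19.4 (edgeR adjusted p = 0.024). That call was lost without control CT08 b, control CT20 library 3 or MCD CT20 library 1, where the adjusted p reached 0.062. It was also lost without the females, in the 5-df test of the 6 times, and without the libraries of under 30 M counts (range 0.27, adjusted p = 0.16). Its neuronal auxiliary subunit Kcnmb4, which slows BK gating, held 19.7 to 29.8 CPM at CT0 and 13.0 to 17.1 CPM at CT12. Those libraries did not overlap, and the range was 0.58 ± 0.09 with a peak at CT23.4 (adjusted p = 2.00e-05). Of the SK channels, Kcnn2 (range 0.55 ± 0.10, peak CT16.0, adjusted p = 0.00032) and Kcnn3 (range 0.39 ± 0.12, peak CT18.4, adjusted p = 0.033) were called. The Kcnn3 call was lost in 10 of the 36 fits that left out a library, with an adjusted p of up to 0.080, and in 6 of 12 other settings (range 0.24 and adjusted p = 0.25 without the libraries of under 30 M counts).

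Other Kv genes that were called peaked at night as well. Kcna4, an A-type Kv1 subunit, held 3.69 ± 1.1 CPM at CT4 and 6.31 ± 1.6 CPM at CT12 (SD, n = 6 each), with a range of 0.73 ± 0.18 and a peak at CT14.9 (adjusted p = 0.0060). The libraries of these times overlapped. Of the EAG-type channels, Kcnh8 had a range of 0.75 ± 0.12 and a peak at CT14.8 (adjusted p = 6.14e-05), and Kcnh1 a range of 0.51 ± 0.12 and a peak at CT23.2 (adjusted p = 0.0052). Kcns2, a silent subunit that joins Kv2 channels, passed narrowly at 4.17 CPM (range 0.73 ± 0.24, peak CT18, adjusted p = 0.047), and its call was kept in 13 of the 36 fits that left out a library.

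In the K2P leak family, Kcnk3 and Kcnk10 were called of 9 members. Kcnk3, an acid-sensitive channel, held 15.1 ± 1.2 CPM at CT8 and 20.4 ± 1.7 CPM at CT0 (SD, n = 6 each), with no overlap, a range of 0.43 ± 0.07 and a peak at CT21.1 (edgeR adjusted p = 9.34e-05). Kcnk10, a mechano- and lipid-gated channel, had a range of 0.82 ± 0.21 and a peak at CT17.3 (adjusted p = 0.0088). That call was lost in the 5-df test of the 6 times (edgeR adjusted p = 0.068). Kcnk1, the highest member per kb, did not pass, at 41.5 ± 2.4 CPM at CT20 and 47.3 ± 2.6 CPM at CT12 (adjusted p = 0.13). The 2 non-coding members were not called.

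Several marker lists also varied over the day, at different hours. The blood list, 4 genes of haemoglobin and haem synthesis, summed to 37.1 to 1298 CPM per library, with 3 of 4 genes called and peaks near CT19. Its median sum was 334 CPM at CT20 and 82.0 CPM at CT8. In the fit without control CT16 library 2, which had the highest blood sum, 21 members were called. That fit still held control CT00 library 1, with a sum of 1216 CPM, so blood content was not removed. Of the mural cell markers, 3 of 6 were called, and the list summed to 91.3 to 185 CPM, with a median of 162 CPM at CT20 and 119 CPM at CT12. All 6 general neuron markers were called, with a median range of 0.27, as were 2 of 3 markers of ependyma and choroid plexus and 1 of 5 of the hypothalamus outside the SCN (Oxt, peak CT3.7). The neuron list was higher by day, with a median sum of 2940 CPM at CT8 and 2611 CPM at CT16, and the ependyma list held 192 CPM at CT4 and 115 CPM at CT12. The astrocyte, oligodendrocyte, microglia and endothelium lists had 1 called gene each. Of these markers Alas2, a haem synthesis gene, and Sim1 and Th of the hypothalamic list were at 0 in at least 1 library, and their part in the members' rhythms was not tested. Of other excitability genes, 10 of 15 calcium channel, 6 of 8 cation channel, 5 of 6 sodium pump and 1 of 10 sodium channel genes were called, with median ranges of 0.34, 0.33, 0.26 and 0.21.

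The second question was whether the diet altered these rhythms. On the control diet alone 12 members were called (15.1% of all genes) and on MCD alone 13 (16.1%). On both diets 9 were called, against 9.87% of all genes. The MCD count fell to 8 without MCD CT04 library 3 or MCD CT16 library 3. Without the females it was 7 (10.7% of all genes), and the control count was 12 (13.7%). A difference in the 24 h component between the diets was called for 0 of the 73 members by edgeR (0.0127% of all genes), and 4 members had an unadjusted p under 0.05 (3.78% of all genes), namely Kcnb2, Kcnc2, Kcnip3 and Kcnv1. DESeq2 and limma-voom also called 0. For the 20 called members the fitted peaks on the diets lay a median of 1.17 h apart. Kcnc2 had a range of 1.2 and a peak at CT9.4 on control and a range of 1.45 and a peak at CT8.7 on MCD (unadjusted p of the difference 0.045). Kcnip3 peaked at CT2.4 on control and CT24.0 on MCD (unadjusted p = 0.029). Neither difference passed the adjustment. Kcnj5 had a range of 1.43 on control and 0.64 on MCD, and was called on control alone, but the difference itself was not called.

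The third question was whether the diet changed the level of the members. For the mean over the 6 times, edgeR called 0 of 73 members (0.0635% of all genes, 0.0381% higher and 0.0254% lower), DESeq2 and limma-voom also called 0, and 4 members had an unadjusted p under 0.05 (4.73% of all genes). The median change over the members was 0.02 (log2), against 0.00 over all genes, and 39 of 73 means were higher on MCD. The changes were small where the counts were high. Among the 27 members of at least 20 CPM they ran from -0.16 to 0.19, and their 95% intervals lay between -0.32 and 0.43. The lowest p was that of Kcnt1, a sodium-activated channel. It held 24.6 to 39.0 CPM (median 33.0) on control and 30.1 to 52.7 CPM (median 36.6) on MCD. The diets overlapped, although the mean was higher on MCD at 6 of 6 times, and the change was 0.19 ± 0.05 (SE, log2; 95% interval 0.08 to 0.30; unadjusted p = 0.0014, edgeR adjusted p = 0.33). Kcnj2, a strong inward rectifier, was lower on MCD by 0.50 ± 0.22 at a mean of 1.54 CPM (edgeR adjusted p = 0.93), and the auxiliary subunit Kcne1l was lower by 0.16 ± 0.08 (adjusted p = 1). At single times, 0 members were called at any of the 6 (0.00635%, 0.0444%, 0, 0, 0.00635% and 0.00635% of all genes from CT0 to CT20), and 3, 4, 3, 4, 1 and 5 members had an unadjusted p under 0.05 (4.74%, 5.45%, 1.79%, 2.08%, 1.97% and 6.45% of all genes). The lowest was Kcnd1 at CT20, with a change of 0.93 (unadjusted p = 0.0039, adjusted p = 0.54).

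**Figure D4:**
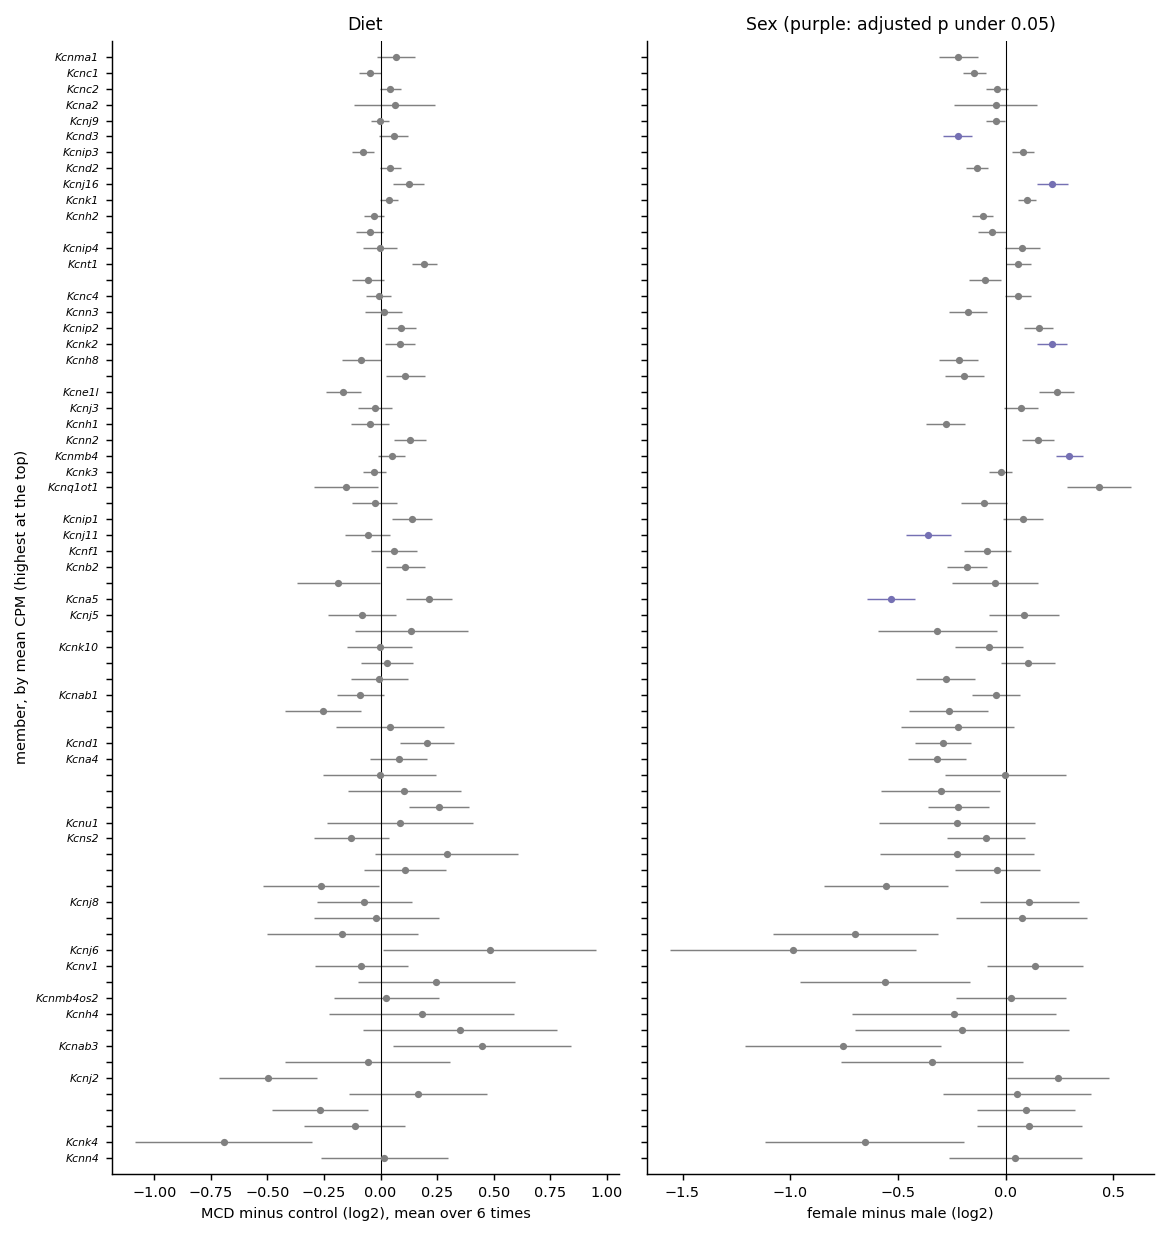
Change with diet (left, MCD minus control) and with sex (right, female minus male) in log2 with the standard error for each of 70 members, ordered by mean CPM, with those named in the text labelled. No member passed for diet; the 6 purple members passed for sex, and the errors widen toward the low members at the bottom.

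The design also allowed a comparison of 12 female with 24 male libraries. Every female library carried replicate number 3 and no male library did, so sex and that number cannot be told apart. The differences below are named by sex only as a label. Of the 73 members, 6 were called (8.22%), against 9.89% of all genes (4.91% higher and 4.98% lower in females). The count was 2 to 12 in fits that left out 1 library: 12 without MCD CT16 library 3, and 2 or 3 without any of 11 others (control CT00 1 and 3, CT04 1 and 3, CT08 a, CT12 1, and CT16 1 and 3, and MCD CT04 3 and CT12 1 and 3). Those higher in females were Kcnmb4, the leak channel Kcnk2 and the rectifier subunit Kcnj16, and those lower were Kcna5, Kcnj11 and Kcnd3. Kcna5, a Kv1 subunit, held 3.16 to 9.01 CPM (median 4.85) in females and 4.98 to 9.60 CPM (median 7.56) in males. The sexes overlapped in range, but the female lay below both males in 11 of the 12 groups, and the difference was -0.53 ± 0.11 (SE, log2; edgeR adjusted p = 0.0053). Kcnmb4 held 15.6 to 29.8 CPM (median 20.8) in females and 13.0 to 21.5 CPM (median 17.1) in males. The female lay above both males in 11 of the 12 groups, with a difference of 0.30 ± 0.06 (adjusted p = 0.0057). The others were smaller or less secure, with 0.22 ± 0.07 for Kcnk2 (adjusted p = 0.044), 0.22 ± 0.07 for Kcnj16 (adjusted p = 0.050), -0.36 ± 0.11 for Kcnj11 (adjusted p = 0.030) and -0.22 ± 0.07 for Kcnd3 (adjusted p = 0.037). Kcna5 and Kcnmb4 kept their calls in all 36 fits that left out a library, Kcnj11 in 31, Kcnd3 in 22, Kcnk2 in 14 and Kcnj16 in 13. In the exon-bin sums Kcnj11, Kcnd3 and Kcnk2 did not pass (adjusted p of 0.097, 0.062 and 0.061). Without the 5 libraries of under 30 M counts, of which 3 were female, only Kcna5 of the 73 was called, and 0.463% of all genes. Summed markers of ependyma and choroid plexus ran from 96.0 to 252 CPM in females and 74.3 to 233 CPM in males, and 2 of the 3 tested genes were called higher in females. The astrocyte gene Gfap was also higher in females (0.30, edgeR adjusted p = 0.0015). Of the 10 SCN markers, 4 were called lower in females (Six6, Rorb, Six3 and Vipr2) and 1 higher (Nms), and 2 of the 6 general neuron markers were lower (Gad2 and Slc32a1). Their part in these differences was not tested.

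Exon usage, the share of a gene's counts in each part of its exons, was compared with edgeR's diffSpliceDGE on the exon-bin files. Of the 67 members with enough bins, 0 were called for diet (0.0327% of 15275 genes) and 0 for CT4 and CT8 against CT16 and CT20 (0.111%). At an unadjusted p under 0.05 there were 8 members for diet (11.9%, against 4.0% of all genes) and 2 for time (3.0%, against 6.19%), and edgeR's gene-level F test also called 0 in both. The lowest p-values were those of Kcnq1ot1 for diet (0.0052, adjusted 0.84) and of the silent subunit Kcnv1 for time (0.0041, adjusted 0.49).

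The exon-bin files gave another count for each member. Summed over the bins of a gene and tested in the same way, they called 24 members for rhythm over both diets. This stood against 22.5% of the 21696 genes tested there, a larger set than in the gene table. The 24 included all 20 called in the gene table. The fitted peak moved by at most 0.942 h for those 20. Abcc8 had a range of 1.86 and a peak at CT20.4 there (edgeR adjusted p = 8.84e-08). The 4 further members were Kcna2, Kcnc1, Kcnip1 and Kcnu1. Kcna2, the highest Kv1 member, shows the difference between the tables. Its gene table value was 7.77 CPM in control CT12 library 2 and 56.8 CPM or more in all others, while the bins of that library summed to 2416 counts (54.7 CPM). Over 34 libraries its log2 values had an SD of 0.65 in the gene table and 0.27 in the bin sums, and its range was 0.47 (edgeR adjusted p = 0.31) in the former and 0.50 (adjusted p = 0.0024) in the latter.

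Low members were affected most. Of the members, 16 were listed at 0 in 1 to 5 libraries of the gene table, and for 13 of them the bins held reads in every such library. Kcnj6 was at 0 in 5 libraries whose bins held 11 to 48 counts, and its range fell from 1.78 to 0.81 in the bin sums (edgeR adjusted p = 0.099). A 0 in the gene table was therefore not read as absence. Between the tables, 55 of the 73 members had a correlation over 0.9 across the 34 libraries that could be matched by name, given as a description of counts that come from the same libraries.

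**Figure D5:**
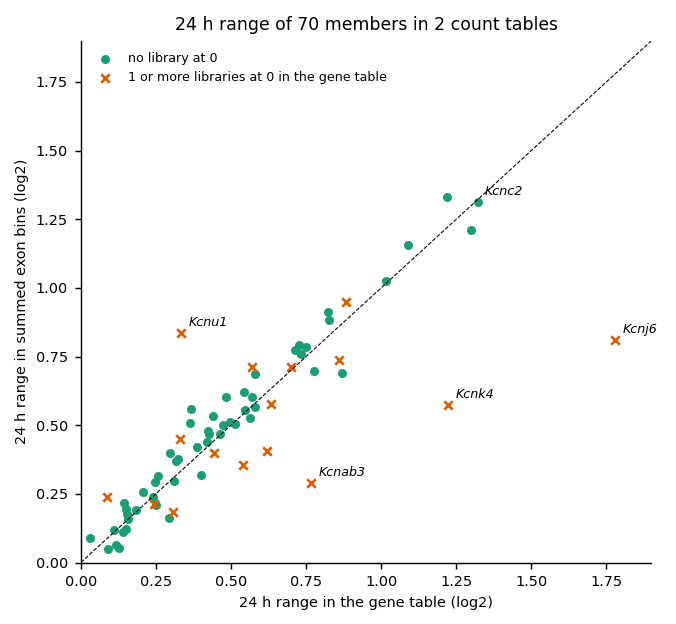
Fitted 24 h range (log2) of 70 members in the gene table (horizontal axis) and in summed exon bins (vertical axis), with the line of equal values dashed; crosses mark the 16 members listed at 0 in 1 or more libraries of the gene table. Most points lie near the line, and the named ones off it (Kcnj6 at 1.78 and 0.81, Kcnk4, Kcnab3 and Kcnu1) are crosses.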

How the data were processed

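The authors deposited whole-number counts per gene for 36 SCN libraries in 1 table and counts per exon bin in 1 file per library, per the file headers. The submitters' processing notes name Trimmomatic, HISAT2, StringTie, DESeq2 and build GRCm39, with no role or order. Whether counting used the strand is not stated in the labels or headers, and members that overlap another gene are therefore uncertain. The liver files were not used. The members and gene lists were chosen with earlier results of these data known. Of its columns, 2 control males at CT8 share a column name and are called control CT08 a and b, without a number.

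Tests on gene counts used edgeR 4.0.16 and its quasi-likelihood fit (TMM, filterByExpr with a minimum count of 10, robust dispersions). The model held the 12 groups and sex, and p-values were adjusted over all 15759 genes with a threshold of 0.05. The range is the fitted peak minus trough. On data simulated from these counts, the fit recovered 62.0% of rhythmic genes with a range of 0.5 log2 and 80.0% with 1, and 81.0% and 97.0% of genes changed by diet by these sizes (15759 genes run, 100 of each kind changed). Of the calls in that simulation, 2.74% for rhythm and 5.82% for diet were false. The changed genes were drawn above a floor on level and were far fewer than those called in the data. These rates therefore do not carry over to the lowest members. Exon usage was tested with diffSpliceDGE. Exon lengths came from GENCODE M21 by gene ID. Every pair of libraries within a group differed beyond counting error (chi-square per degree of freedom at least 24.1). Genes named were all called members, the highest of each family per kb, a fixed list of SCN-related channels, and the 3 lowest p-values where none was called. Limma-voom, DESeq2, other scalings and filters, the replicate block, and fits without each library were tried as alternatives. Same-numbered libraries had small correlations of their deviations (mean correlations of 0.108, 0.020 and 0.093 for numbers 1, 2 and 3, a lowest of -0.101, and a mean of -0.035 between different numbers), and not every pair was over 0.1, so the numbers were not treated as pairs. Results of 3 members are counted in the totals and are not reported here by name or plotted.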

Additional observations from a re-analysis of the deposited data

How the results depend on the processing

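The exon-bin sums and the fit without libraries of under 30 M counts were chosen after seeing the data. The replicate block fit of the gene counts also left out control CT08 a and b, which have no number. That group then held its female library alone, so the fit is not a change of model only. For sex it set number 3 against numbers 1 and 2. Over both diets the number of members called for rhythm was 15 to 29 in 12 alternatives and 17 to 28 without each library in turn. It was 29 by DESeq2, 24 by limma-voom, 15 by a 5-df test of the 6 times, 25 without the libraries of under 30 M counts and 17 with the replicate block. Of the 20 called members, 14 kept their call in all 12 alternatives and 17 in all 36 fits without a library; the others lost it somewhere (Kcnma1, Kcnn3 and Kcns2 without a library and in 3, 6 and 3 of the 12 alternatives, Kcnj3, Kcnn3 and Kcns2 with the replicate block at adjusted p of 0.051, 0.055 and 0.14, and Kcnk10 in the 5-df test). On control the count was 8 to 14 (8 with the replicate block, where 7.92% of all genes were called) and 10 to 15 without each library. On MCD it was 7 to 15 (7 without the females, replicate 3, and 12 with the replicate block) and 8 to 16 without each library, with 8 without MCD CT04 library 3 or MCD CT16 library 3. For sex it was 2 to 12 without each library, 12 without MCD CT16 library 3 and 3 or fewer without 11 others (control CT00 1 and 3, CT04 1 and 3, CT08 a, CT12 1, CT16 1 and 3, and MCD CT04 3, CT12 1 and 3). It was 5 with the replicate block, 9 by DESeq2, 8 with library totals alone and 1 without the libraries of under 30 M counts. That last fit called 1 member, Kcnj6, for the difference in rhythm, 1 for diet over the 6 times and 1 at a single time. Kcnj6 was listed at 0 in 5 libraries. All other alternatives gave 0 for these 3 and for exon usage. The 3 diet changes (Kcnt1, Kcnj2 and Kcne1l) and the 6 sex differences followed through the alternatives kept their sign; a range has none, and other members' signs were not followed. The filters left all 15759 genes, so they changed no gene count. Low members had wide errors: a fitted range of 1.78 ± 0.73 in Kcnj6 did not pass.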
